A study of Gallus gallus with 6 samples.

Results

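In the basal region of the chick basilar papilla (BP), the hearing epithelium of birds, 72 genes were lower on the gentamicin arrays than on the control arrays at both 48 and 72 hrs. They were 72 of the 8846 genes that could be judged, or 0.814%. They were chosen by 4 differences on the log2 scale, each a treated array minus the control array of the same replicate number, and each had to be under -0.4. A gene also had to have a probe set (a group of short probes for 1 transcript) that the array's annotation gives a single gene symbol and whose mean log2 intensity over the 6 arrays was above 5, and the brightest probe set that passed stood for the gene. The values at 48 and 72 hrs against control therefore chose the genes and are given below as a description without a test. The same rule turned round, with every difference above 0.4, found 85 genes, or 0.961%, and 89 probe sets, or 0.655%.

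The BP carries hair cells (HCs), which turn sound into electrical signals through channels in their hair bundles, and supporting cells (SCs), which surround each HC and rest on a basement membrane of laminin, collagen IV and fibronectin. Gentamicin is an aminoglycoside antibiotic that enters HCs and kills them. In birds the lost HCs are replaced from SCs, some of which change directly into HCs while others first divide. Notch signaling between neighbouring cells, read out through HES and HEY repressors, holds SCs in their own fate. Roles named below are those known for the human or mouse gene of the same symbol.

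RNA was measured in 3 groups of wild type chicks: 48 hrs after gentamicin, 72 hrs after gentamicin, and untreated. Gentamicin was given at 12 to 16 days of age, and the paper describes the untreated chicks as matched in age. Each group had 2 arrays, and each array held RNA pooled from several dissected basal regions, so a spread between arrays is a spread between pools. The replicate numbers come from the titles of the arrays, while the source names of both 48 hr arrays and both control arrays carry the number 2. In such bulk tissue fewer cells of a type and less RNA per cell cannot be told apart.

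The array had 38535 probe sets, and between 51.7% and 54.4% of the values per array were under an intensity of 32, a log2 value of 5. The labelled tissue was checked with TECTB and GJB6, genes that SCs of the papilla express strongly, which were between 13.11 and 13.58 on all 6 arrays. Among markers of HCs, CHRNA10 was between 8.14 and 8.83 on all arrays and OTOF between 7.55 and 9.70, and neither was lower on all treated arrays. The replicate 2 arrays of the treated groups differed in the array's own RNA controls: GAPDH, read as 3' end minus 5' end, was 4.97 and 4.58 log2 on the replicate 2 arrays at 48 and 72 hrs, against 3.31 on the replicate 2 control, and 3.0 and 2.05 on the replicate 1 arrays, against 2.46 on the replicate 1 control. On the first principal component of the 9360 probe sets above a mean of 7 log2, the replicate 2 array at 72 hrs lay at -41.56 and the other 5 arrays between -10.05 and 20.09. The connective tissue gene DCN stood at 7.11 and 7.78 at 48 hrs and 6.96 and 5.12 at 72 hrs, against 10.09 on control replicate 1 and 4.84 on control replicate 2. In each group GAPDH was higher, and the first component lower, on replicate 2 than on replicate 1. Both thus ran along the replicate numbers that the rule pairs. DCN did not, since replicate 2 was the higher array at 48 hrs and the lower one at 72 hrs and in controls. The part of these differences in the choice of genes was not tested.

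Both pairs were needed to define the genes. The replicate 1 arrays alone had 586 probe sets under -0.4 at both times, or 4.31% of the 13585 that could be judged, and the replicate 2 arrays alone had 1030, or 7.58%. The 82 probe sets in both, 0.604% of those judged, made up 14% of the first list and 7.96% of the second. Another 38 probe sets of the first list were above 0.4 at both times in replicate 2, and 96 of the second list were above 0.4 at both times in replicate 1. With the control arrays exchanged between the pairs 69 genes met the rule, 38 of them among the 72. After quantile normalization 66 of the 72 met it again, and B4GALT4, COL4A1, FEZ1, HES5, RPS14 and SGCE did not. A further 321 probe sets passed in exactly 3 of the 4 differences. The weakest difference was -0.40 for COL4A1, FEZ1 and WAPL just inside the threshold, and -0.40, -0.39 and -0.39 for EIF4E3, MGST1 and EPS15 just outside it.

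**Figure D1:**
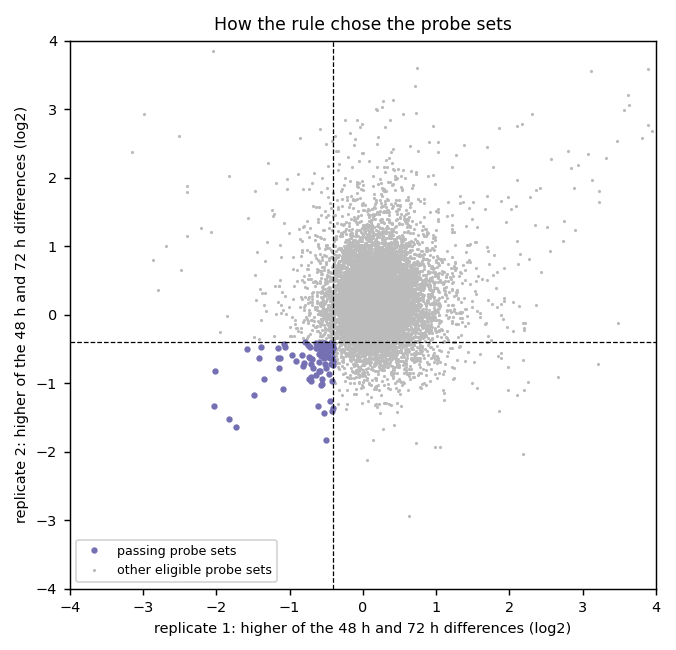
Choice of the probe sets. For each of the 13585 probe sets that could be judged, the higher of its 48 and 72 hr differences from control (log2) is drawn for replicate 1 (horizontal axis) and replicate 2 (vertical axis), with dashed lines at -0.4 and 12 points outside the axes. The 82 passing probe sets fill the lower left corner, near the lines for the most part.

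Over the 72 genes the median was -0.72 and -0.80 at 48 hrs in replicates 1 and 2 and -0.69 and -0.85 at 72 hrs, where the medians over all 8846 genes were 0.01, 0.00, 0.01 and -0.02. The mean of both pairs ran from -2.84 to -0.44 at 48 hrs and from -2.74 to -0.42 at 72 hrs. It was under -1 for 21 genes at 48 hrs and for 21 genes at 72 hrs, and 3 genes were under -1 in each of the 4 differences. In 62 genes all 4 treated arrays were below both controls, and in the other 10 at least 1 treated array reached a control. Treated arrays below both controls were seen in 5.23% of the 13585 judged probe sets. The rule itself puts each treated array under its own control, so a high count among the 72 follows from the choice. On the control arrays the genes were near ordinary brightness: their control level had a median of 7.85 log2, and that of all genes was 8.0. Their mean over all arrays, treated ones included, was lower, with a median of 7.15 log2 against 7.99 for all genes. The rule favours high control and low treated values, so neither median is free of the choice. They were spread over the genome, with 14 on chromosome 1 (19.4%, where 13.4% of all judged genes lie), 1 on Z (TMC1) and 0 on W in the assembly GRCg7b.

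**Figure D2:**
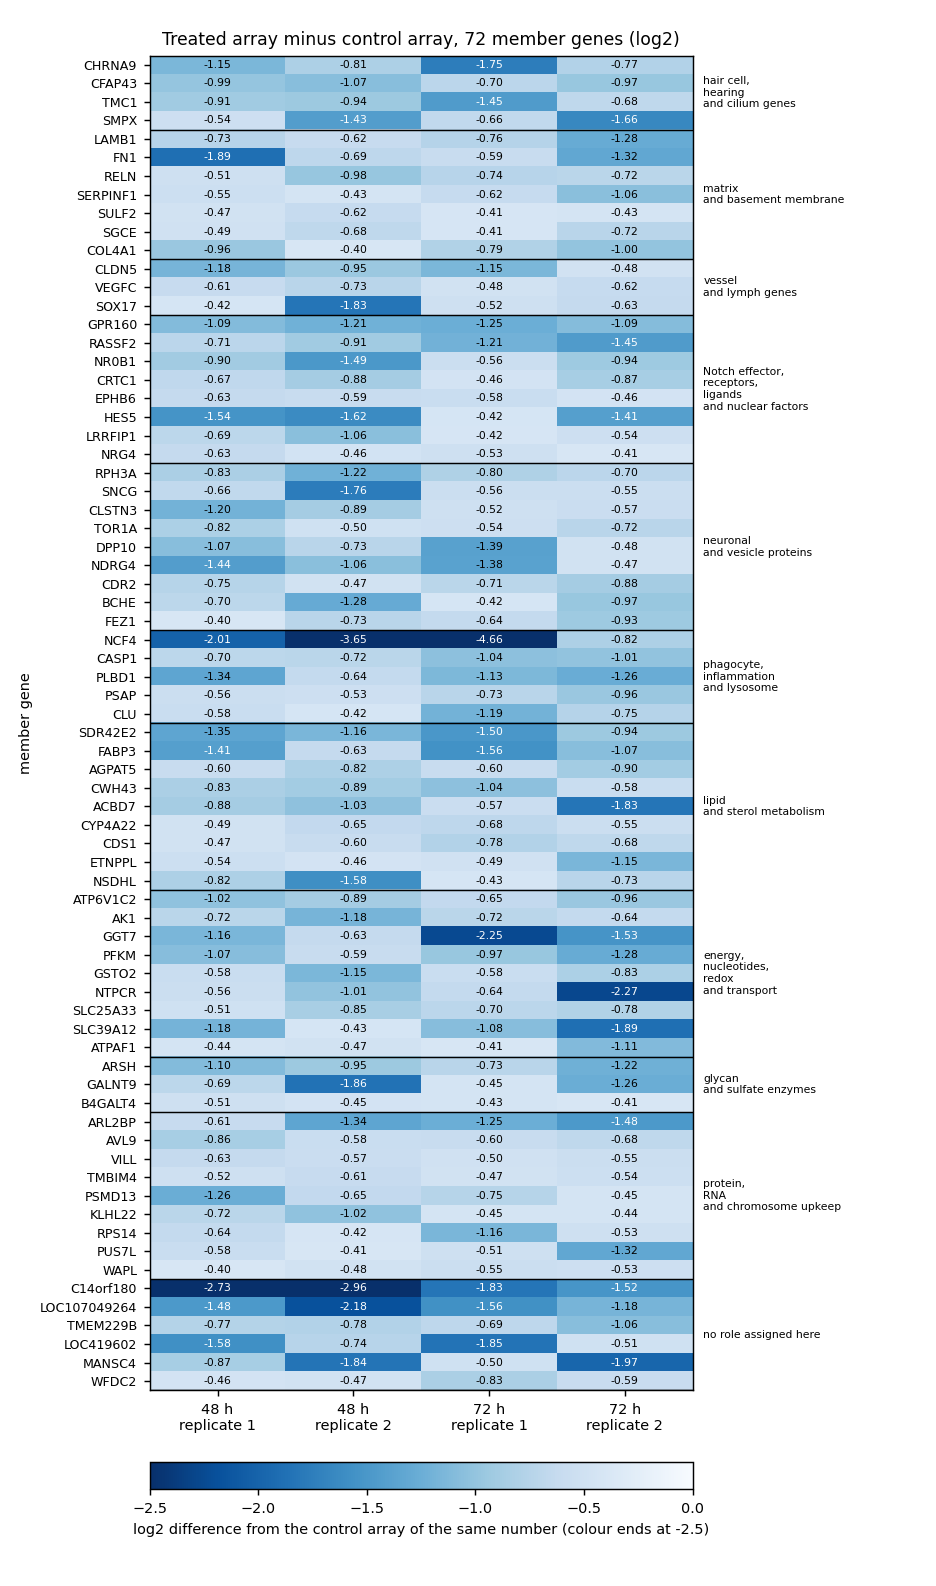
The 72 genes and their 4 log2 differences, treated array minus the control array of the same number, in columns for 48 hrs and 72 hrs and in rows grouped by the known role of the gene. Darker blue is lower, with the colour ending at -2.5. C14orf180 and NCF4 are the darkest rows, and most other rows lie between -0.4 and -1.3.

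The 3 genes under -1 in each of the 4 differences were C14orf180, LOC107049264 and GPR160. C14orf180, an open reading frame without an assigned function here, was at 6.16 and 5.69 at 48 hrs and 7.06 and 7.13 at 72 hrs, against 8.89 and 8.65 in controls. All 4 treated arrays were far under both controls, and the 48 hr arrays were the lowest. As geometric means of intensity this was 60.7 at 48 hrs and 136 at 72 hrs, against 436 in the controls. LOC107049264, an uncharacterized gene, was at 5.39 and 4.47 at 48 hrs and 5.31 and 5.48 at 72 hrs, against 6.87 and 6.65 in controls, close to the dim end of the array. GPR160, an orphan G protein-coupled receptor, was at 7.56 and 7.31 at 48 hrs and 7.41 and 7.43 at 72 hrs, against 8.66 and 8.52 in controls. Its 4 treated arrays lay close together, and both controls were well above the highest of them. SDR42E2, a member of the short-chain dehydrogenases and reductases, is a bright gene and was at 9.61 and 9.46 at 48 hrs and 9.46 and 9.68 at 72 hrs, against 10.96 and 10.62 in controls. TMEM229B, a membrane protein, was at 9.75 and 10.06 at 48 hrs and 9.83 and 9.77 at 72 hrs, against 10.52 and 10.84 in controls. In both genes the treated arrays of 48 and 72 hrs overlapped and stayed under both controls on the chosen probe set. A brighter probe set for TMEM229B did not meet the rule: it was at 11.12 and 11.13 at 48 hrs and 10.88 and 11.56 at 72 hrs, against 11.53 and 11.76 in controls, which put the replicate 2 array at 72 hrs just above the replicate 1 control.

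**Figure D3:**
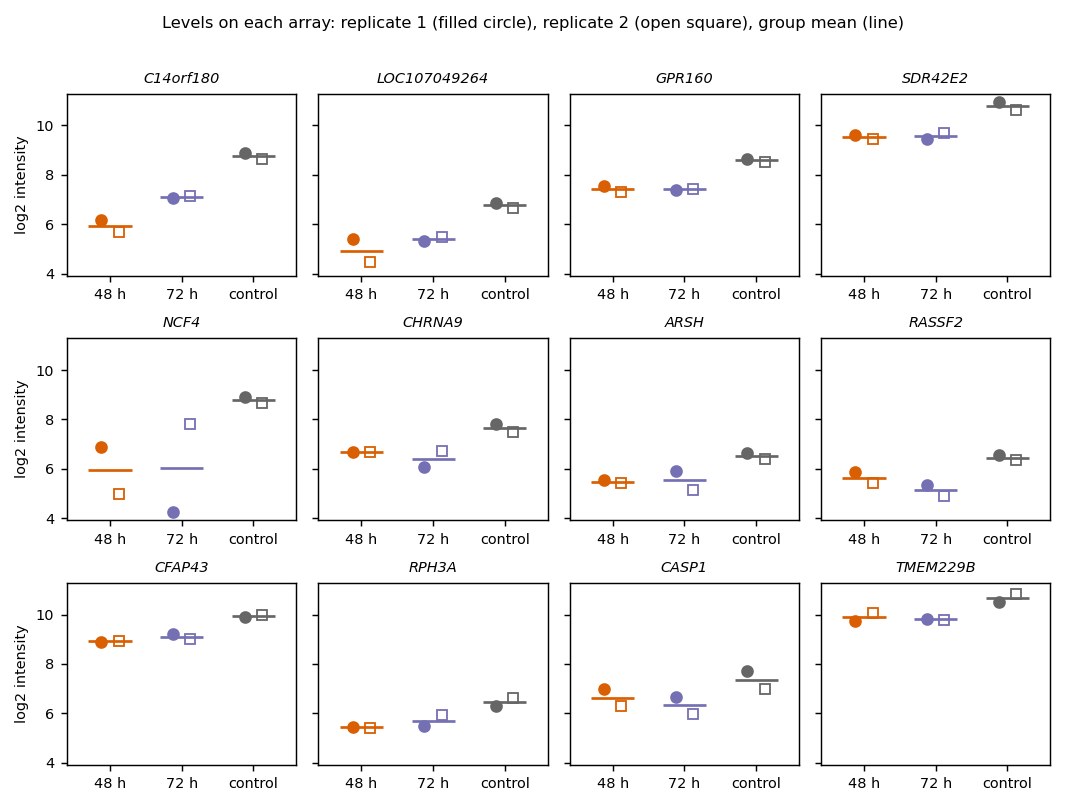
Log2 intensity of 12 of the genes on each array, at 48 hrs, at 72 hrs and in controls, with replicate 1 as a filled circle, replicate 2 as an open square and the group mean as a line. The genes are those whose weakest difference was farthest below 0, and in NCF4 the 72 hr arrays lie more than 3 apart.

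Genes of HC function in the set were CHRNA9 and TMC1. CHRNA9 encodes a subunit of the acetylcholine receptor through which nerve fibers from the brain inhibit HCs. It was at 6.66 and 6.66 at 48 hrs and 6.05 and 6.70 at 72 hrs, against 7.81 and 7.48 in controls, with all treated arrays under both controls. Its partner subunit CHRNA10 was at 8.22 and 8.29 at 48 hrs and 8.83 and 8.61 at 72 hrs, against 8.14 and 8.47 in controls, so the replicates lay on both sides at 48 hrs and above the controls at 72 hrs. TMC1 encodes a part of the mechanotransduction channel of the hair bundle and was at 5.42 and 5.34 at 48 hrs and 4.89 and 5.60 at 72 hrs, against 6.33 and 6.28 in controls. Other probe sets for TMC1 did not repeat this at 72 hrs: a brighter one was at 5.34 and 6.04 at 48 hrs and 6.37 and 7.36 at 72 hrs, against 6.84 and 6.74 in controls, which put the replicate 2 array at 72 hrs above both controls. Of 37 HC genes listed and judged, these 2 met the rule (0.814% of all judged genes did). Another 2 (CABP2 and CALB2, both calcium-binding proteins) met the mirrored rule (0.961% of all). On the brightest probe set of each gene, 6 were under 0 in all 4 differences (12.6% of all) and 3 above 0 (12.8% of all). The list had medians of -0.04 (replicate 1) and -0.16 (replicate 2) at 48 hrs, and 0.18 and -0.02 at 72 hrs.

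A pair of further genes is linked to hearing or cilia. SMPX, a small protein of muscle and cytoskeleton in which mutations cause human deafness, was at 5.99 and 5.44 at 48 hrs and 5.86 and 5.22 at 72 hrs, against 6.53 and 6.88 in controls. Its brightest probe set, which failed the threshold in a single difference, was at 11.26 and 10.83 at 48 hrs and 10.90 and 10.77 at 72 hrs, against 11.64 and 11.83 in controls. These 2 probe sets gave the same order of groups at very different brightness. Further judged probe sets for SMPX were lower in all 4 differences, from -0.93 to -0.10 on a dim one and from -0.74 to -0.32 on the other. On the dim one the replicate 2 array at 72 hrs was above the replicate 1 control. CFAP43, a protein of the ciliary axoneme, was at 8.91 and 8.92 at 48 hrs and 9.20 and 9.02 at 72 hrs, against 9.90 and 9.99 in controls. A dimmer probe set for CFAP43 was at 7.69 and 7.61 at 48 hrs and 8.22 and 7.63 at 72 hrs, against 8.63 and 8.99 in controls, and on it too every treated array was under both controls. The dimmest judged probe set for CFAP43 was at 5.58 and 6.04 at 48 hrs and 6.19 and 6.31 at 72 hrs, against 6.23 and 7.18 in controls. It did not meet the rule, and its replicate 2 array at 72 hrs was above the replicate 1 control.

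Extracellular matrix and basement membrane genes gave 7 members, in a grouping by known role made from the 72 genes with no wider count. LAMB1, the beta 1 chain of laminin, was at 8.50 and 8.58 at 48 hrs and 8.48 and 7.91 at 72 hrs, against 9.23 and 9.19 in controls, and the 4 treated arrays were under both controls. FN1, fibronectin, was at 7.08 and 8.39 at 48 hrs and 8.38 and 7.76 at 72 hrs, against 8.97 and 9.08 in controls. Its lowest array was replicate 1 at 48 hrs, far under the other array of that time. RELN, the secreted glycoprotein reelin, was at 9.98 and 9.75 at 48 hrs and 9.76 and 10.01 at 72 hrs, against 10.50 and 10.73 in controls. COL4A1, a chain of collagen IV, was at 7.07 and 6.93 at 48 hrs and 7.24 and 6.33 at 72 hrs, against 8.03 and 7.33 in controls, and the highest treated array came close to the lower control. The other 3 were SULF2, which removes sulfate groups from heparan sulfate outside the cell, the membrane protein SGCE (epsilon-sarcoglycan) and the secreted serpin SERPINF1. Their mean differences ran from -0.84 to -0.42, and they are not on the gene list counted next.

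Of 50 listed matrix and basement membrane genes that were judged, 4 met the rule (COL4A1, FN1, LAMB1 and RELN), 0 met the mirrored rule, 10 were under 0 in all 4 differences and 4 above 0 in all 4. Of all 8846 judged genes 0.814% met the rule, 0.961% met the mirrored rule, 12.6% were under 0 in all 4 and 12.8% above 0 in all 4. The list as a whole was close to the controls in replicate 2. In replicate 1 its medians were -0.20 (48 hrs) and -0.25 (72 hrs), whereas in replicate 2 both were -0.00. Relatives of the members were mixed. COL4A2, which pairs with COL4A1 in collagen IV, was at 8.11 and 7.51 at 48 hrs and 8.14 and 8.10 at 72 hrs, against 8.96 and 8.21 in controls, and missed the rule in replicate 2 at 72 hrs. COL4A4, a dim chain, was lower in all 4 differences, from -1.38 to -0.37, and missed the rule in replicate 1 at 48 hrs. COL4A5 and COL4A6 had differences on both sides of 0. Another 5 laminin chains that were judged had mean differences between -0.33 and 0.73 at 48 hrs and between -0.53 and 1.45 at 72 hrs.

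HES5, the Notch-driven repressor kept on in SCs, was the strongest of the signaling genes at 48 hrs. It was at 8.03 and 8.15 at 48 hrs and 9.15 and 8.37 at 72 hrs, against 9.57 and 9.78 in controls. The differences were -1.54 and -1.62 at 48 hrs and -1.41 in replicate 2 at 72 hrs, whereas replicate 1 at 72 hrs was 0.42 under its control. A dim second probe set for HES5, between 4.90 and 6.04, was lower in 1 of its 4 differences. HES6, a relative that acts against Notch-driven repression, was at 7.72 and 8.23 at 48 hrs and 9.19 and 8.10 at 72 hrs, against 4.01 and 4.36 in controls. HES4, a dimmer judged relative, was lower in all 4 differences, with -0.225 and -0.47 at 48 hrs and -0.43 and -0.41 at 72 hrs. It missed the rule in replicate 1 at 48 hrs alone. The remaining judged members of this family, HEY1 and HEY2, had differences between -0.50 and 0.18. HES5 was 1 of 21 judged Notch genes and 1 of 27 judged SC genes that met the rule (0.814% of all judged genes did). Of the Notch genes HES6 met the mirrored rule, 3 were under 0 in all 4 differences and 4 above 0. Of the SC genes 0 met the mirrored rule, 3 were under 0 in all 4 and 1 above 0. Over all judged genes 0.961% met the mirrored rule, 12.6% were under 0 in all 4 and 12.8% above 0.

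The remaining ligands, receptors and nuclear proteins were lower by smaller amounts at 48 hrs. NRG4, a ligand of the ErbB4 receptor, was at 9.28 and 9.68 at 48 hrs and 9.39 and 9.73 at 72 hrs, against 9.92 and 10.14 in controls. EPHB6 is an Eph receptor without kinase activity. It was at 6.89 and 6.59 at 48 hrs and 6.93 and 6.72 at 72 hrs, against 7.52 and 7.17 in controls. EPHB6 was the single member among 78 judged adhesion and guidance genes (0.814% of all judged genes met the rule). CDH2 of the same list met the mirrored rule (0.961% of all). RASSF2, a binding partner of Ras, was at 5.85 and 5.43 at 48 hrs and 5.36 and 4.89 at 72 hrs, against 6.56 and 6.34 in controls. Its other judged probe set was between 5.57 and 6.37 on all arrays, with differences from -0.12 to 0.61. NR0B1, an orphan nuclear receptor, CRTC1, a coactivator of CREB, and LRRFIP1, a nucleic acid binding protein, had mean differences from -1.20 to -0.48. The brightest probe set had differences from 0.09 to 0.65 for CRTC1 and from -0.53 to 0.08 for LRRFIP1. Of 78 judged genes of the FGF, BMP, WNT and TGF-beta pathways 0 met the rule and 2 (BMP6 and FGFBP1) met the mirrored rule. On the brightest probe set of each gene, 4 were under 0 in all 4 differences and 16 above 0. Of 26 judged ear transcription factors 0 met either rule, 4 were under 0 in all 4 and 1 above 0. Of all judged genes 0.814% met the rule, 0.961% the mirrored rule, 12.6% were under 0 in all 4 and 12.8% above 0. For the rule itself, a count of 0 in lists of this size is near the background.

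Vessel and lymph genes gave 3 members. CLDN5, the tight junction protein of endothelium, was at 5.85 and 5.87 at 48 hrs and 5.88 and 6.33 at 72 hrs, against 7.03 and 6.82 in controls, and a second probe set was at 5.68 and 4.88 at 48 hrs and 5.88 and 5.74 at 72 hrs, against 6.69 and 6.48 in controls. On both probe sets all treated arrays were under both controls. SOX17, a transcription factor of endoderm and arteries, was at 5.55 and 3.86 at 48 hrs and 5.45 and 5.06 at 72 hrs, against 5.97 and 5.69 in controls, with the replicate 2 array at 48 hrs well under the rest. VEGFC, the growth factor of lymph vessels, was at 7.45 and 7.13 at 48 hrs and 7.59 and 7.23 at 72 hrs, against 8.06 and 7.86 in controls. Of 9 judged endothelial genes CLDN5 and SOX17 met the rule (0.814% of all judged genes did), and these 2 were the ones under 0 in all 4 differences (12.6% of all). Another 3 were above 0 in all 4 (12.8% of all). The summed intensity of the 9 genes was 767 and 777 at 48 hrs and 889 and 1050 at 72 hrs, against 1072 and 757 in controls. That sum includes CLDN5 and SOX17, which were chosen as lower, so part of any fall in it follows from the choice. The defining markers were dim and mixed. PECAM1 was at 5.66 and 4.94 at 48 hrs and 5.63 and 6.41 at 72 hrs, against 5.47 and 3.92 in controls. CDH5 and KDR, too dim to be judged, had differences of -2.29 and -0.71 (CDH5) and -0.52 and 0.33 (KDR) at 48 hrs, and of -2.25 and 0.12 (CDH5) and -0.25 and 0.09 (KDR) at 72 hrs. The part of endothelial cells in the CLDN5 and SOX17 values was not tested.

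NCF4, a subunit of the phagocyte oxidase, had the largest single difference and the least even one. It was at 6.90 and 5.0 at 48 hrs and 4.25 and 7.83 at 72 hrs, against 8.91 and 8.65 in controls. The arrays of 72 hrs were more than 3 apart, and replicate 2 of that time was 0.82 under its control. A second NCF4 probe set lay between 4.04 and 5.07 on all arrays, too dim to be judged. NCF4 was the only member among 20 judged leukocyte genes (0.814% of all judged genes met the rule). The list's summed intensity was 3400 and 3214 at 48 hrs and 2857 and 2759 at 72 hrs, against 4122 and 3121 in controls. That sum includes NCF4 itself, which was chosen as lower, so part of any fall in it follows from the choice. As geometric means of intensity NCF4 was 61.7 at 48 hrs and 65.9 at 72 hrs, against 440 in controls. LAPTM5, also in the list, met the mirrored rule (0.961% of all). On the brightest probe set of each gene, 2 were under 0 in all 4 differences (12.6% of all) and 4 above 0 (12.8% of all). CD74, a partner of MHC class II proteins, was at 7.80 and 7.11 at 48 hrs and 7.74 and 6.58 at 72 hrs, against 8.08 and 7.35 in controls, under its own control in all 4 differences. CSF1R, the macrophage growth factor receptor, was above its control in all 4, with differences from 0.14 to 0.31, and the general leukocyte marker PTPRC was too dim to be judged. The part of leukocytes in the NCF4 values was not tested.

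CASP1, a protease that processes interleukin 1, was at 7.0 and 6.28 at 48 hrs and 6.66 and 5.99 at 72 hrs, against 7.70 and 7.0 in controls, where the higher 48 hr array was level with the lower control. Its other probe set was higher than control in 3 of 4 differences. PLBD1, a lysosomal phospholipase, CLU, the secreted chaperone clusterin, and PSAP, the precursor of the lysosomal saposins, completed this group with mean differences from -1.20 to -0.50. PSAP entered through a dim probe set, and its brightest probe set had differences from -0.35 to 0.01.

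Genes known from neurons and vesicles gave 9 members. RPH3A, rabphilin, which binds synaptic vesicles, was at 5.47 and 5.41 at 48 hrs and 5.50 and 5.92 at 72 hrs, against 6.30 and 6.63 in controls, but another probe set was above control in all 4 differences. SNCG, gamma-synuclein, was at 8.82 and 8.43 at 48 hrs and 8.92 and 9.64 at 72 hrs, against 9.48 and 10.19 in controls. In that gene the replicate 2 array at 72 hrs was above the replicate 1 control, though under its own. NDRG4, FEZ1 (an adaptor of axonal transport), CLSTN3 (a synaptic adhesion protein), DPP10 (a partner of potassium channels), BCHE (butyrylcholinesterase), TOR1A (torsin A) and CDR2 had mean differences from -1.25 to -0.55. The brightest probe set had differences from -0.29 to 0.02 for TOR1A and from -0.80 to -0.16 for CLSTN3. Of 21 judged neuronal marker genes 0 met the rule, and 0.814% of all judged genes did.

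A grouping by known role, made from the 72 genes with no wider count, gave 9 proteins of lipid and sterol metabolism. Matrix, vessel, neuronal, energy and glycan genes above and below were grouped in the same way. The lipid and sterol proteins had mean differences from -1.31 to -0.50. Besides SDR42E2 these were FABP3, a fatty acid carrier, and AGPAT5 and CDS1, which act in the path through phosphatidic acid to phospholipids. Also among them were NSDHL of cholesterol synthesis, CYP4A22, which hydroxylates fatty acids, and ACBD7, which binds acyl-CoA. ETNPPL, which breaks down phosphoethanolamine, and CWH43, known in yeast for remodeling of lipid anchors, completed the group. NSDHL was at 8.29 and 7.87 at 48 hrs and 8.68 and 8.73 at 72 hrs, against 9.11 and 9.45 in controls. Its 72 hr arrays lay between those of 48 hrs and the controls.

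Energy, nucleotide and transport genes gave another 9. ATP6V1C2, a C subunit of the proton pump V-ATPase, had the highest control level of all 72 genes and was at 10.92 and 10.99 at 48 hrs and 11.29 and 10.92 at 72 hrs, against 11.94 and 11.88 in controls. A second probe set of similar brightness was at 10.36 and 10.42 at 48 hrs and 10.95 and 10.34 at 72 hrs, against 10.90 and 11.09 in controls, and its replicate 1 array at 72 hrs was not lower. Of 17 judged V-ATPase genes ATP6V1C2 alone met the rule (0.814% of all judged genes did). The median of the other 16 was -0.07 at 48 hrs and -0.15 at 72 hrs. ATP6V1C1, the other C subunit, was at 10.04 and 10.15 at 48 hrs and 10.34 and 9.91 at 72 hrs, against 10.10 and 10.66 in controls. AK1, adenylate kinase, which balances ATP, ADP and AMP, was at 9.98 and 9.38 at 48 hrs and 9.98 and 9.92 at 72 hrs, against 10.70 and 10.55 in controls. GGT7, of the gamma-glutamyl transferase family, was at 9.24 and 7.77 at 48 hrs and 8.15 and 6.87 at 72 hrs, against 10.40 and 8.40 in controls, where the controls lay far apart and their range overlapped that of the treated arrays. SLC25A33, a mitochondrial carrier of pyrimidine nucleotides, was at 7.85 and 7.62 at 48 hrs and 7.65 and 7.69 at 72 hrs, against 8.36 and 8.47 in controls, and SLC39A12, a zinc transporter, was at 5.06 and 5.49 at 48 hrs and 5.17 and 4.02 at 72 hrs, against 6.25 and 5.92 in controls. These carriers were 2 members among 191 judged solute carriers and pumps, or 1.05%, near the 0.814% of all judged genes. SLC16A8 and SLC38A1 of the same list met the mirrored rule (0.961% of all). PFKM of glycolysis, ATPAF1 (an assembly factor of ATP synthase), NTPCR (a nucleoside triphosphatase) and GSTO2 (a glutathione transferase) had mean differences from -1.45 to -0.46. The brightest probe set had differences from -0.29 to 0.05 for ATPAF1 and from -0.49 to 0.03 for GSTO2. That of NTPCR had differences from -1.41 to -0.39.

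RPS14 and PSMD13 belong to large protein machines whose other judged genes had medians close to 0. RPS14, a ribosomal protein, was at 10.24 and 10.39 at 48 hrs and 9.73 and 10.28 at 72 hrs, against 10.88 and 10.80 in controls. A brighter RPS14 probe set was at 12.32 and 11.57 at 48 hrs and 12.17 and 11.34 at 72 hrs, against 12.24 and 11.77 in controls. RPS14 was the only member among 24 judged genes of small ribosomal subunit proteins and their relatives (0.814% of all judged genes met the rule). The other 23 had medians of 0.00 and -0.09. PSMD13, of the proteasome, is dim here and was at 4.56 and 5.10 at 48 hrs and 5.07 and 5.30 at 72 hrs, against 5.82 and 5.74 in controls. It was the only member among 37 judged genes with a proteasome symbol (0.814% of all judged genes met the rule). The other 36 had medians of 0.03 and 0.05. WAPL, which releases cohesin from chromosomes, was at 11.13 and 11.04 at 48 hrs and 10.98 and 10.99 at 72 hrs, against 11.53 and 11.52 in controls, and TMBIM4, of a family that restrains cell death, was at 10.86 and 10.85 at 48 hrs and 10.91 and 10.92 at 72 hrs, against 11.38 and 11.46 in controls. Both are bright, with small and even differences. KLHL22, PUS7L, ARL2BP, AVL9 and VILL had mean differences from -1.37 to -0.45. Brighter probe sets of KLHL22, PUS7L and ARL2BP were not lower throughout: the brightest had differences from -0.46 to 0.95 for KLHL22, from -0.04 to 0.35 for PUS7L and from -0.56 to 0.08 for ARL2BP. That of VILL had differences from -0.33 to -0.04.

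Glycan and sulfate enzymes gave 3 members. ARSH, an arylsulfatase, was at 5.53 and 5.43 at 48 hrs and 5.90 and 5.16 at 72 hrs, against 6.63 and 6.38 in controls, and B4GALT4, a galactosyltransferase, was at 10.07 and 10.25 at 48 hrs and 10.14 and 10.30 at 72 hrs, against 10.58 and 10.71 in controls. The treated arrays of both were under both controls on the chosen probe sets. A dim second probe set for B4GALT4 had differences from -0.15 to 0.65, above control in replicate 2 at both times. GALNT9, which starts O-linked glycans, had means of -1.28 at 48 hrs and -0.85 at 72 hrs. Without an assigned role here were LOC419602, MANSC4 and WFDC2, with means from -1.35 to -0.47.

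Other probe sets of the same genes gave a second reading from the same RNA. Of the 72 genes, 38 had another probe set that could be judged, 62 probe sets in all. Of these 62, 34 (54.8%) were under 0 in all 4 differences, a pattern shown by 11.9% of all judged probe sets. The rule was met by 10 of the 62, and by 0.604% of all judged probe sets. All were read on the same arrays that chose the genes, so these shares are not an independent test. The medians of the 62 were -0.40 at 48 hrs and -0.42 at 72 hrs. The choice of the brightest passing probe set fixes that every brighter one failed, so brighter and dimmer ones cannot be set against each other. Of the 37 dimmer probe sets, which could pass or fail, 24 were under 0 in all 4 differences. The 25 brighter ones belonged to 21 genes, whose call rests on a dimmer probe set: ACBD7, ARL2BP, ATPAF1, CLSTN3, CRTC1, GGT7, GSTO2, KLHL22, LRRFIP1, NTPCR, PSAP, PUS7L, RASSF2, RPS14, SERPINF1, SMPX, TMC1, TMEM229B, TOR1A, VILL and WFDC2, and 10 of the 25 were under 0 in all 4.

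Agreement between probe sets was close in some genes. The second probe set of SDR42E2 was at 6.18 and 6.50 at 48 hrs and 6.59 and 6.05 at 72 hrs, against 8.32 and 8.14 in controls, a wider gap than on the chosen one. That of LOC107049264 was at 4.85 and 4.63 at 48 hrs and 4.26 and 4.31 at 72 hrs, against 6.88 and 5.96 in controls. FN1 had 3 further judged probe sets, all under 0 in the 4 differences, and each repeated the low replicate 1 array at 48 hrs. For CRTC1 the brightest probe set was above control in all 4 differences.

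**Figure D4:**
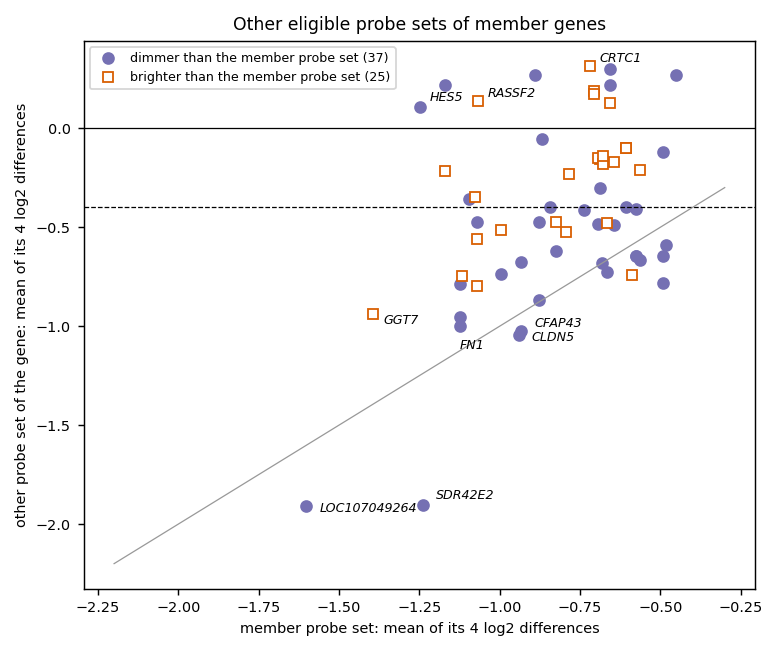
Each of the 62 other judged probe sets of the 72 genes, as the mean of its 4 log2 differences from control (vertical axis) against that of the chosen probe set of the gene (horizontal axis), with a solid line at 0, a dashed line at -0.4 and a gray line of equality. Circles are the 37 dimmer and squares the 25 brighter probe sets. SDR42E2 and LOC107049264 lie near -1.9, and RASSF2, HES5 and CRTC1 lie above 0.

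The comparison of 72 with 48 hrs was not used by the rule, although it draws on the same treated arrays. The median of 72 minus 48 hrs was 0.03, with 0.04 in replicate 1 and 0.03 in replicate 2, and -0.01 over all genes. In 15 genes both 72 hr arrays were above both 48 hr arrays, which 14.8% of the 13585 judged probe sets showed, in 8 they were below, which 12.4% of those showed, and in 49 the groups overlapped. In a linear model across all 38382 probe sets (limma, Benjamini-Hochberg), 8 of the probe sets (0.0208%) were higher at 72 hrs, 11 (0.0287%) were lower, and 0 of the 72 genes were among them. At an unadjusted p under 0.05, 3 of the genes were higher and 0 lower, where 1.91% and 1.44% of the 38382 probe sets were.

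The 3 genes were C14orf180, NSDHL and HES5. C14orf180 was 1.17 higher at 72 hrs (SE 0.27, 95% interval 0.55 to 1.78, limma adjusted p = 0.987), in both replicates, and still under both controls. NSDHL was 0.62 higher (SE 0.24, interval 0.07 to 1.17) and HES5 0.67 higher (SE 0.28, interval 0.01 to 1.32), with adjusted p of 1 in limma for each. The most negative gene with both 72 hr arrays under both 48 hr arrays was NTPCR at -0.67 (SE 0.39, interval -1.57 to 0.23), followed by RASSF2 at -0.52, CLU at -0.47 and ARL2BP at -0.39. With 2 arrays a group these intervals are wide, and those of GPR160 (-0.54 to 0.51), SDR42E2 (-0.43 to 0.50) and CHRNA9 (-0.99 to 0.42) leave room for a change in either direction.

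**Figure D5:**
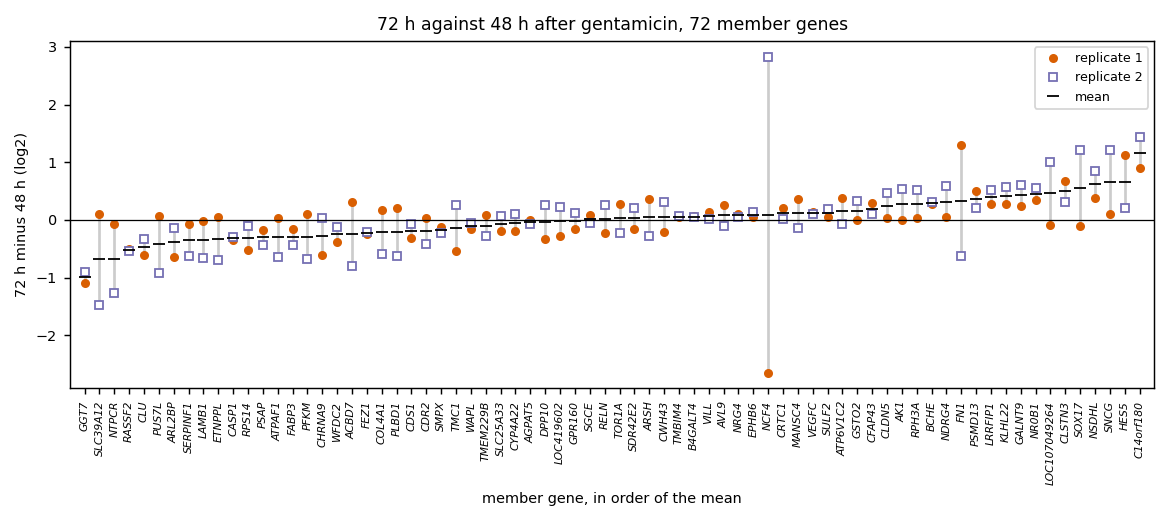
Difference of 72 minus 48 hrs (log2) for the 72 genes in order of the mean, with replicate 1 as circles, replicate 2 as open squares and the mean as a bar. Most means lie close to 0, C14orf180 is at the upper end with 1.17, and the replicates of NCF4 point in opposite directions.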

How the data were processed

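RNA from basal regions of the BP was measured on Affymetrix arrays of the chicken genome, 6 arrays in 3 groups of 2. The authors deposited intensity values on a linear scale. Their processing notes list MAS5 (no version), whereas the methods say that dChip normalized the arrays and computed expression. Here log2 was taken with no further normalization, and 0 columns lacked a sample. The 38382 probe sets that are not among the array's 153 controls entered 1 linear model over the 3 groups (lmFit and eBayes with a trend, limma 3.58.1, R 4.3.3) for 72 minus 48 hrs, with Benjamini-Hochberg adjustment at 0.05. Its p-values reflect how pools vary, not chicks. Simulated data held known changes at 72 minus 48 hrs in probe sets with a mean above 5 log2. In fits over 38382 probe sets, 0%, 27.4% and 69.5% of changes of 1, 2 and 3 log2 were recovered. Without a change 0 calls were made. At 2 log2, 274 of 283 calls were true, and at 3 log2, 695 of 720. The simulated arrays were independent, whereas real arrays of the same number deviated alike, so these figures may not carry over.

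Symbols were taken from the annotation of the platform and positions from RefSeq, which placed all 72 genes. Tables were made with Python 3.11.15 and pandas 2.3.3. Genes set to be named are those with the 12 most negative weakest differences, the 8 highest control levels and up to 4 members of each gene list. The genes next to the threshold were named too. So were the 4 most negative and 4 most positive at 72 minus 48 hrs with groups that do not overlap. Values on each array are given for these genes except FEZ1, EIF4E3, MGST1, EPS15, NTPCR, CLU and ARL2BP, which have differences alone. SMPX, NRG4, VEGFC, GGT7 and PSMD13, the probe sets beside the chosen ones and the relatives of members were added after their values were seen. The genes, the lists and the grouping by role were chosen with earlier results of these data known. Sequences were not used here.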

Additional observations from a re-analysis of the deposited data

How the results depend on the processing

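The number of genes depended on the settings. Quantile normalization gave 76 genes (66 of the 72 among them, without HES5 and COL4A1), equal array medians 99 (with all 72, and with the median of all genes at -0.12 in replicate 2 at 72 hrs), a floor of 32 gave 70 and exchanged controls 69. A minimum of 7 log2 left 40 genes and no minimum gave 300, a threshold of -0.6 left 22, and 38 genes had all treated arrays below both controls by the threshold. As choices made after the data were seen, 51 genes passed with the brightest probe set of each gene taken first and 37 with every judged probe set passing. Leaving out 1 array gave 106 to 934 genes, the most without control replicate 1 and 520 without control replicate 2. Each left-out array also took away the differences that used it, more of them for a control than for a treated array. The rule was looser for that reason, so these larger counts do not measure dependence on a given array. Of the 72 genes 35 passed alike under quantile normalization, equal medians, the floor, exchanged controls and the stricter comparison with both controls. CHRNA9, TMC1, FN1, LAMB1 and CLDN5 were among them. This count left out the settings on probe sets. TMC1 failed with the brightest probe set taken first, and both TMC1 and FN1 failed with every judged probe set required to pass.

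For 72 minus 48 hrs, 0 of the 72 genes were called under any setting. Over all probe sets the floor of 32 gave 1 higher and 2 lower, and a fit without a trend gave 0 and 0. Leaving out 1 array gave 0 higher in each case and 0 to 5 lower. With the replicate number as a block 11 were higher and 17 lower. The deviations of arrays with the same number from their group means correlated at 0.40 (48 hrs and control), 0.28 (72 hrs and control) and 0.50 (72 and 48 hrs) over 13585 probe sets, but the labels do not say that a number marks a shared batch. The median of the 72 genes was -0.0175 after quantile normalization, -0.0462 with equal medians and from -0.15 to 0.16 with 1 array left out, so its sign is not settled. Precision is limited by 2 arrays a group and by dim genes: 14 of the 72 had a treated array under 32.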
